A study of Mus musculus with 30 samples.

Results

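Mesothelial and epicardial genes were followed in the left ventricle of 30 mice. The members are the 8 genes *Msln*, *Upk3b*, *Upk1b*, *Lrrn4*, *Wt1*, *Krt19*, *Krt8* and *Krt18*. They are out of 49671 genes counted in the peptide experiment and 56386 features, genes or single transcripts, in the antibody experiment. They were chosen by their measured values in these hearts, with earlier results known: their levels, their link to *Myl7* and both treatment comparisons all belong to that choice, so these values are given as a description. Male wild type C57BL6J mice received daily i.p. injections of recombinant human Aβ42 (7 mice) or of a scrambled peptide, ScrAβ42 (7 mice), for 4 weeks. The labels give a start at 12 weeks of age and a dose of 1 mg per day, and the study's methods give a start at 10 to 12 weeks and 1 µg. In a separate experiment, male mice of the same strain received weekly i.p. injections of 3D6, an antibody that neutralises Aβ42 (8 mice), or of an isotype control antibody, Con (8 mice). By the study's methods both antibody groups were fed a high-fat diet for months from about the same age and no peptide is named, whereas the series' design text says that they were given Aβ42. Within an experiment the 2 groups differ by the agent given, as far as the labels and methods say.

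The epicardium is the mesothelial sheet that covers the heart, and a similar sheet lines the pericardial, pleural and peritoneal cavities. Mesothelial cells are flat epithelial cells of mesodermal origin that carry simple-epithelial keratins and surface glycoproteins, and the healthy adult epicardium is a single thin layer over a thick wall of muscle. WT1 is the zinc finger factor that marks the epicardium in the embryo, and it is also found in some endothelial cells of the adult heart. In RNA from bulk tissue, fewer mesothelial cells and less RNA per cell cannot be told apart.

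*Msln* encodes mesothelin, a surface glycoprotein of mesothelial cells (GRCm38 chromosome 17, 25748613 to 25754378, minus strand). *Upk3b* (chromosome 5, 136038496 to 136046487, plus strand) and *Upk1b* (chromosome 16, 38773184 to 38800328, minus strand) encode uroplakins, membrane plaque proteins that mesothelium shares with urothelium. *Lrrn4* encodes a leucine-rich repeat membrane protein (chromosome 2, 132868305 to 132880891, minus strand). *Krt19* encodes a type I keratin (chromosome 11, 100140810 to 100148665, minus strand). *Krt8*, a type II keratin (chromosome 15, 101996698 to 102004482, minus strand), and *Krt18*, its type I partner in the filament (chromosome 15, 102028180 to 102032027, plus strand), are neighbours whose start sites lie 23698 bp apart. *Wt1* lies on the plus strand of chromosome 2, from 105126529 to 105173616. *Krt8* overlaps the gene *Gm36026* on the opposite strand and shares up to 941 bases with the pseudogene *Krt8-ps* at 95% identity or more, so its counts are uncertain where the mapping could split them. One *Msln* transcript shares at most 161 bases with 47 other genes, and for *Upk3b*, *Upk1b*, *Lrrn4*, *Wt1*, *Krt19* and *Krt18* 0 other genes share a run of 100 bases or more at that identity.

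Promoter windows of RefSeq (GRCm38.p6) were matched for *Upk3b*, *Lrrn4*, *Krt8* and *Krt18*. *Upk3b* and *Lrrn4* are shown because they hold the letters GGAATG, the core of the TEAD motif, on one strand or the other, marked in capitals, and because their levels moved together from heart to heart. The windows are printed 5′ to 3′ on the strand of the gene and end before its first base in GENCODE, chr5:136038246-136038495 for *Upk3b* and chr2:132880892-132881112 for *Lrrn4*.
*Upk3b*: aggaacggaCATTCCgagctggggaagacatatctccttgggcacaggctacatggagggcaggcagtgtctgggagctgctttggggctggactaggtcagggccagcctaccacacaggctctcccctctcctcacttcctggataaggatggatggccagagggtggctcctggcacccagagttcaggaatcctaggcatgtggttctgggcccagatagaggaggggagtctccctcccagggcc
*Lrrn4*: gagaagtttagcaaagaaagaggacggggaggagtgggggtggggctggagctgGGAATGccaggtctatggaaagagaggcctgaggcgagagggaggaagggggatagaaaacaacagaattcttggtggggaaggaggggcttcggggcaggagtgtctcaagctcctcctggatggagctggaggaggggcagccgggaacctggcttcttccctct
GGAATG was searched on both strands in the 250 bases before the RefSeq start, and 12.6% of 32851 windows of that length hold it. It lies 241 bases before the start of *Upk3b*, on the opposite strand, and 196 bases before that of *Lrrn4*. The windows of *Krt8* and *Krt18* do not hold it. The GC box, GGGCGG, was in 0 of the 4 windows and is in 32.7% of all of them.
A motif of EGR1 and WT1, GCGGGGGCG, was in 0 of 4 and is in 2.57% of all windows. It shares letters with the GC box.
The TATA box, TATAAA, was in 0 of 4 and is in 12.4% of all windows.
AP-1, as TGANTCA with N for any base, was in 0 of 4 and is in 6.75% of all windows.

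Total counts per heart were 4478991 to 6015767 in the peptide study and 6397192 to 8310478 in the antibody study. The ventricular genes *Myl2*, *Myl3*, *Myh6*, *Tnnt2* and *Actc1* together took at least 36228 CPM (counts per 1000000, with TMM-scaled library sizes) in every heart. Atrial genes differed widely between hearts, from 2.08 to 13634 CPM for 6 genes together, and these values stand beside the members below. A count of 3 corresponds to 0.412 to 0.717 CPM in the peptide study and to 0.366 to 0.479 CPM in the antibody study, and values below that rest on too few counts to rank hearts. Mice were group housed, and which of them shared a cage or litter is not given in the sources used here, so p-values measure the spread between these hearts.

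All 8 members were counted in the peptide study, and only *Krt8* had a heart at 0. *Upk3b* ranged from 3.75 through a median of 28.2 to 67.9 CPM in the 7 Aβ42 hearts and from 5.24 through 13.6 to 28.04 CPM in the 7 ScrAβ42 hearts. *Msln* ranged from 5.73 through 31.9 to 59.8 CPM with Aβ42 and from 5.46 through 14.3 to 26.6 CPM with ScrAβ42. For both genes 4 Aβ42 hearts lay above every ScrAβ42 heart and 3 lay among or below the lower ones, so the groups overlapped and the Aβ42 hearts were spread at both ends.

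*Lrrn4* ranged from 0.562 through 7.34 to 20.5 CPM with Aβ42 and from 1.94 through 6.21 to 9.70 CPM with ScrAβ42. *Upk1b* ranged from 1.69 through 5.75 to 18.3 CPM with Aβ42 and from 1.55 through 3.82 to 8.31 CPM with ScrAβ42. In both genes 3 Aβ42 hearts exceeded every ScrAβ42 heart, again with overlap. Hearts are named by their labels, as Abeta42_3457, and this heart was the highest for *Msln*, *Upk3b*, *Upk1b*, *Lrrn4* and the 3 keratins alike.

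The keratins were lower. *Krt19* ranged from 0.937 through 5.16 to 15.5 CPM with Aβ42 and from 0.437 through 3.54 to 5.21 CPM with ScrAβ42. *Krt18* ranged from 0.621 through 1.39 to 8.79 CPM with Aβ42 and from 0.774 through 1.62 to 4.52 CPM with ScrAβ42, and its ScrAβ42 median was the higher one. *Krt8* had 0 counts in Abeta42_3456 and 31 in Abeta42_3457, with medians of 0.955 CPM with Aβ42 and 0.581 CPM with ScrAβ42. The 3 Aβ42 hearts with the most *Krt8*, with 31, 17 and 17 counts of *Krt8*, lay above every ScrAβ42 heart, where the highest count was 7.

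*Wt1* had the narrowest range of the members. It ranged from 6.62 through 7.83 to 12.1 CPM with Aβ42 and from 5.02 through 8.45 to 8.96 CPM with ScrAβ42. Over all 14 hearts its highest value was 2.41 times the lowest, against 18.1 times for *Upk3b* and 10.9 times for *Msln*. The 3 hearts with the most *Wt1* were Abeta42_3460, Abeta42_3456 and Abeta42_3458, of which Abeta42_3456 had the least *Upk3b* of all 14 and Abeta42_3458 the second most.

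**Figure D1:**
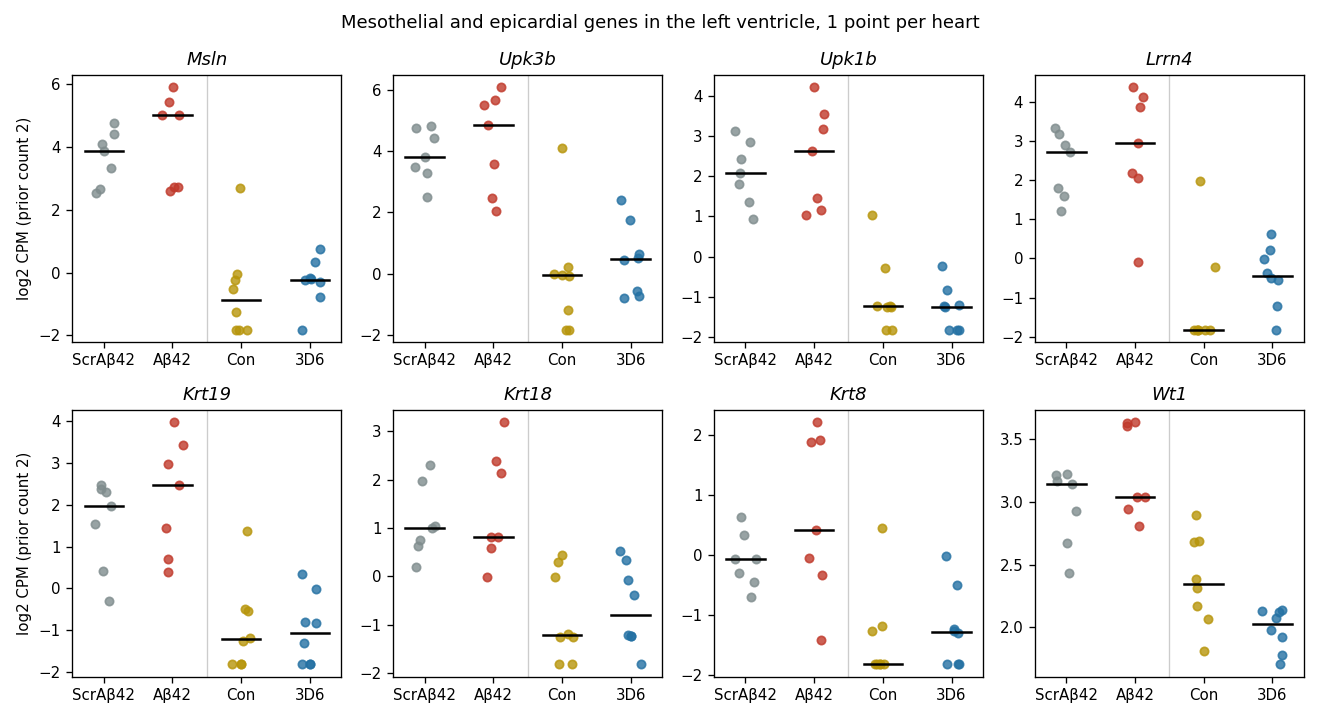
Level of each member in every heart as log2 CPM with a prior count of 2 (vertical axis, a log scale with its own range in each panel), by group (horizontal axis), with the median of the group as a bar and 7 or 8 hearts a group. The Aβ42 hearts split into high and low ones for *Msln* and *Upk3b*, Con mouse 15 stands above the other Con hearts for most members, and *Wt1* spans little more than 1 unit in either study.

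Per kilobase of exon, the members fell into an order within the peptide study. *Msln* and *Upk3b* were alike at 6.62 ± 5.41 and 6.62 ± 5.49 CPM per kb (SD, n = 14), followed by *Upk1b* at 2.76 ± 2.25, *Krt19* at 2.51 ± 2.26 and *Lrrn4* at 2.05 ± 1.60 CPM per kb. *Krt18* at 1.83 ± 1.59, *Wt1* at 1.37 ± 0.353 and *Krt8* at 0.625 ± 0.694 CPM per kb came last. The steps from *Msln* to *Upk3b* and from *Upk1b* down to *Krt18* were smaller than the SD of either neighbour. The steps from *Upk3b* to *Upk1b* and from *Krt18* to *Wt1* lay between the SDs of the neighbours, and the step from *Wt1* to *Krt8* was larger than both.

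In the antibody study the same genes were near the counting limit. Summed over the 7 members other than *Wt1*, the level was 0.319 CPM in the lowest, 2.88 in the median and 8.76 in the highest 3D6 heart, and 0.156, 1.26 and 32.8 CPM in the Con hearts. The same sum in the peptide study was 14.2, 83.1 and 195 CPM with Aβ42 and 17.7, 44.4 and 78.4 CPM with ScrAβ42. The tables were made and scaled separately, one per gene and one per transcript, so the difference in level between the studies was not tested. *Wt1* was at 2.97 to 7.17 CPM in the antibody study and at 5.02 to 12.1 CPM in the peptide study, ranges that overlap.

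Con mouse 15 held 243 counts of these 7 members, whereas the other Con hearts had between 1 and 26. Its *Upk3b* was 16.8 CPM (125 counts), and the next highest Con heart had 0.877 CPM. Its *Msln* was 6.20 CPM, *Lrrn4* 3.64, *Krt19* 2.29, *Upk1b* 1.75 and *Krt8* 1.08 CPM, each above every other heart of the antibody study. *Krt18*, at 0.944 CPM in that heart, lay above the Con median of 0.146 CPM but below the 1.08 CPM of Con mouse 11. *Wt1* did not follow, at 3.91 CPM against a Con median of 4.81 CPM. The same heart had the most *Myl7*, 931 CPM, and 42 counts of *Scgb1a1*, the secretoglobin of airway club cells, which had 1 count in the other 15 hearts together. *Scgb1a1* was picked after its values were seen, and its part in the result was not tested.

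Among the 3D6 hearts, mice 7 and 20 had the most *Upk3b*, 3.11 and 5.06 CPM, and the other 6 lay between 0.300 and 1.27 CPM. Over 16 hearts, *Upk3b* was at 0 counts in 2, *Krt18* in 3, *Msln* in 4, *Upk1b* in 5, *Krt19* in 6, *Lrrn4* in 7 and *Krt8* in 8, and *Wt1* in 0. *Lrrn4* was at 0 in 6 of 8 Con hearts and in 1 of 8 3D6 hearts, where it ranged up to 1.27 CPM (9 counts). A count of 0 allows a level of up to 0.366 to 0.479 CPM, depending on the heart, so an absence was not detectable at this depth.

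The transcript counts of the antibody study show which isoforms carried the signal. *Msln* has 9 transcripts, and 45.9% of its 95 counts fell on the coding Msln-208, in 3 hearts only. The coding Msln-207 had 19.03%, in 7 hearts, and the coding Msln-201 had 17.9%, in 2 hearts. The retained-intron transcripts Msln-204 and Msln-203 had 10.4% and 5.70%. *Upk3b*, *Lrrn4*, *Krt8* and *Krt18* have 1 annotated transcript each, and *Upk1b* had 100% of its counts on the protein-coding Upk1b-201. *Wt1* counts were spread, with 31.5% on Wt1-205, 25.3% on Wt1-204 and 18.5% on Wt1-201, all protein coding. Of the *Krt19* counts 55.0% fell on the coding transcript Krt19-201 and 42.6% on a processed transcript without a reading frame. These are estimates from 42 counts of *Krt19* and 494 of *Wt1* in all.

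From heart to heart in the peptide study, the 7 members other than *Wt1* rose and fell together. Across the 14 hearts of the peptide study, Pearson r of log2 CPM between pairs of them was between 0.67 and 0.96, with a median of 0.88 over 21 pairs, and Spearman's rho was between 0.64 and 0.96. Without the 2 hearts farthest from the median, r was between 0.35 and 0.94, with a median of 0.80. *Wt1* did not follow: its r with the 7 others was between -0.065 and 0.22. In the 16 hearts of the antibody study the pairs of 7 had r between 0.40 and 0.89, with a median of 0.80, and without 2 hearts between 0.034 and 0.83, with a median of 0.60. There the median heart had only 0.5 counts of *Krt8* to 5 of *Upk3b*, too few to rank most hearts. These antibody values are therefore not read as members moving together. Pairs with *Wt1* had r between -0.22 and 0.32. Hearts of both groups are pooled here, they share depth and scaling factors, and no p is given.

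**Figure D2:**
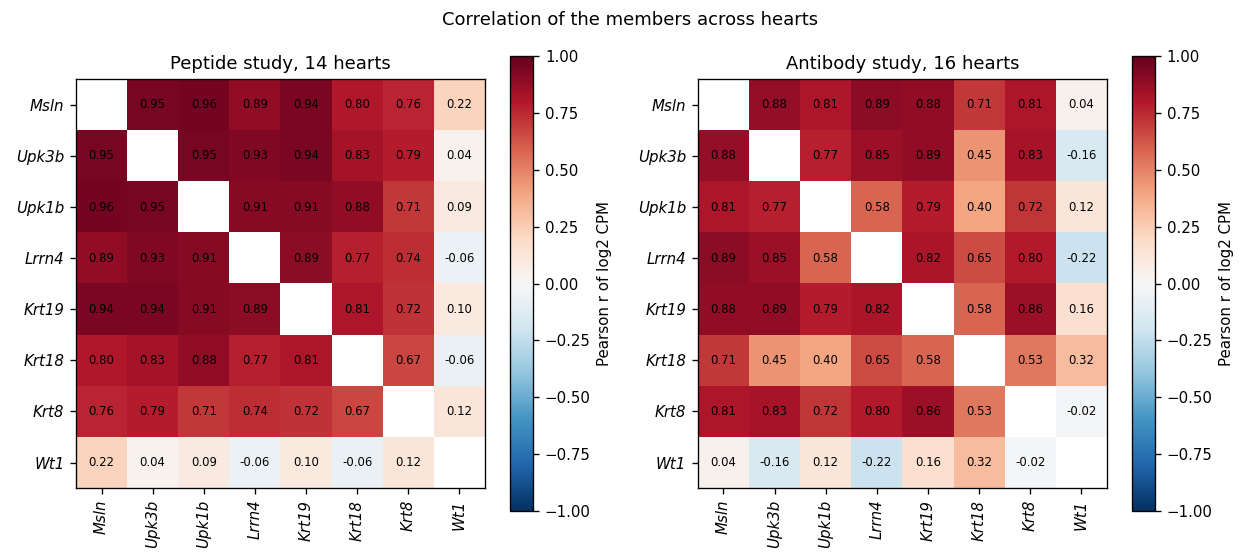
Pearson r of log2 CPM between members across the 14 hearts of the peptide study and the 16 of the antibody study, on a scale from -1 to 1. The 7 members other than *Wt1* form 1 block, at 0.67 to 0.96 in the peptide study, and the row of *Wt1* lies near 0 in both. The antibody values of the 7 rest on few counts.

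The proportions between members were steadier than their levels. For each count of *Upk3b* there were 0.49 to 1.65 counts of *Msln* in the 14 peptide hearts, a 3.36-fold range, and 0.167 to 0.450 counts of *Upk1b*, a 2.70-fold range. *Lrrn4* varied 5.33-fold, *Krt19* 4.00-fold and *Krt18* 6.09-fold against *Upk3b*. For *Wt1* the same ratio ran from 0.115 to 3.20, a 27.7-fold range. The ratio of a gene with few counts also varies by counting error, which was not removed.

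**Figure D3:**
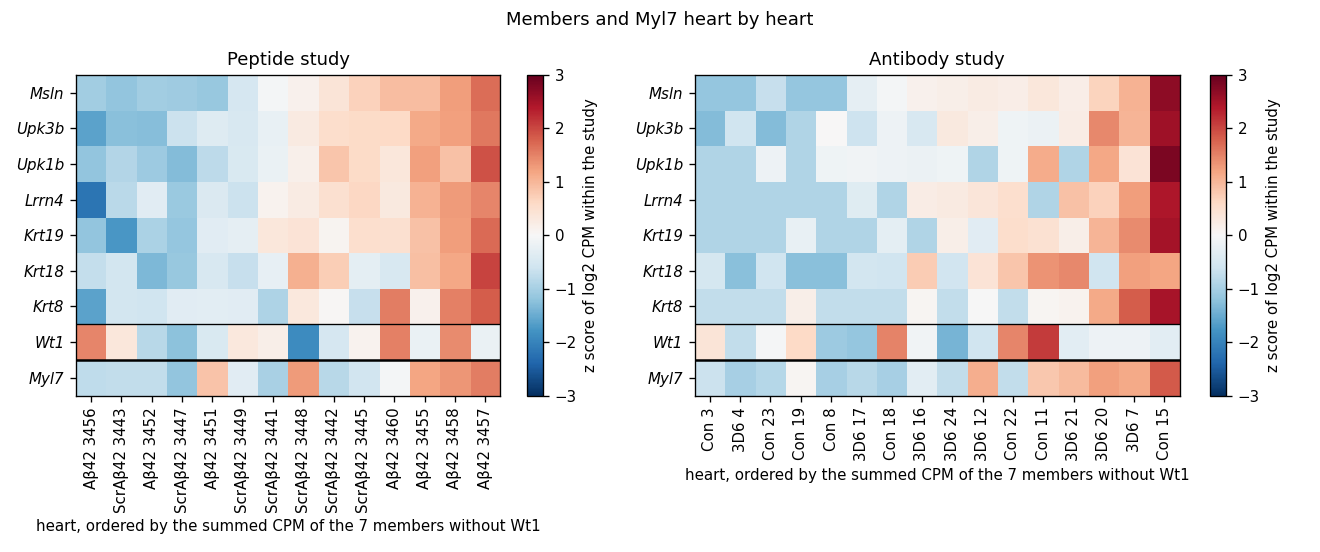
Each member and *Myl7* (rows) in every heart (columns, ordered by the summed CPM of the 7 members other than *Wt1*), as the z score of log2 CPM within the study. The right-hand columns are red for most of the 7 members, and *Wt1* shows no such order. Exceptions include *Krt18* in 3D6 mouse 20 (1 count), and *Upk1b* in 3D6 mouse 21 and *Lrrn4* in Con mouse 11 (0 counts each). *Myl7* is high in the last 3 columns of the peptide study and the last 5 of the antibody study. It is also high further left, in Abeta42_3451, ScrAbeta42_3448 and 3D6 mouse 12.

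*Myl7* encodes the atrial regulatory myosin light chain and is scarcely made by ventricular muscle. It split the hearts of each study into separate clusters. In the peptide study 9 hearts lay between 0.774 and 29.8 CPM and 5 between 416 and 3043 CPM, with 0 in between. The 5 were Abeta42_3451, Abeta42_3455, Abeta42_3457, Abeta42_3458 and ScrAbeta42_3448. Their sums over the 7 members were 27.8, 116, 195, 137 and 60.5 CPM, while the 9 hearts with less *Myl7* had 14.2 to 83.1 CPM. The 3 highest sums thus came with high *Myl7*, Abeta42_3451 had high *Myl7* and a low sum, and Abeta42_3460 had 83.1 CPM of the members with less *Myl7*.

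In the antibody study 10 hearts had 0 to 5.26 CPM of *Myl7* and 6 had 48.2 to 931 CPM. The 6 were Con mice 11 and 15 and 3D6 mice 7, 12, 20 and 21. Their sums over the 7 members were 3.52, 32.8, 8.76, 2.93, 8.58 and 4.21 CPM, and the 10 other hearts had 0.156 to 3.14 CPM. All 6 but mouse 12 were above each of those 10.

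Because the hearts fall into clusters, no correlation of *Myl7* with a member over all of them is given. Within the 9 peptide hearts with less *Myl7*, r with *Myl7* was between 0.048 for *Krt18* and 0.59 for *Krt8* over the 7 members, and between -0.30 and 0.21 without the 2 hearts farthest from the median of *Myl7*, so the relation rested on those hearts. Spearman's rho was between -0.033 and 0.47. No coefficient is given for the 5 hearts with more *Myl7*, since 6 hearts were taken as the least. Within the 6 antibody hearts with more *Myl7*, r was 0.95 for *Upk3b* (rho 0.94) and 0.94 for *Msln* (rho 0.77), and -0.11 for *Krt18*. Only to see how far these rest on single hearts, 2 were left out, and r over the remaining 4, too few to describe a relation, was 0.85 for *Upk3b*, 0.66 for *Msln* and -0.034 for *Lrrn4*, which had 0.87 over 6. Within the 10 other antibody hearts the 7 members had 0 to 9 counts each, too few to rank hearts, and no r is given. For *Wt1* r was 0.65 in the 9 peptide hearts and -0.48 in the 6 antibody hearts with more *Myl7*, against 0.11 and 0.41 without 2 hearts. Whether atrial tissue in the sample, or anything else that came with *Myl7*, had a part in the members' levels was not tested.

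**Figure D4:**
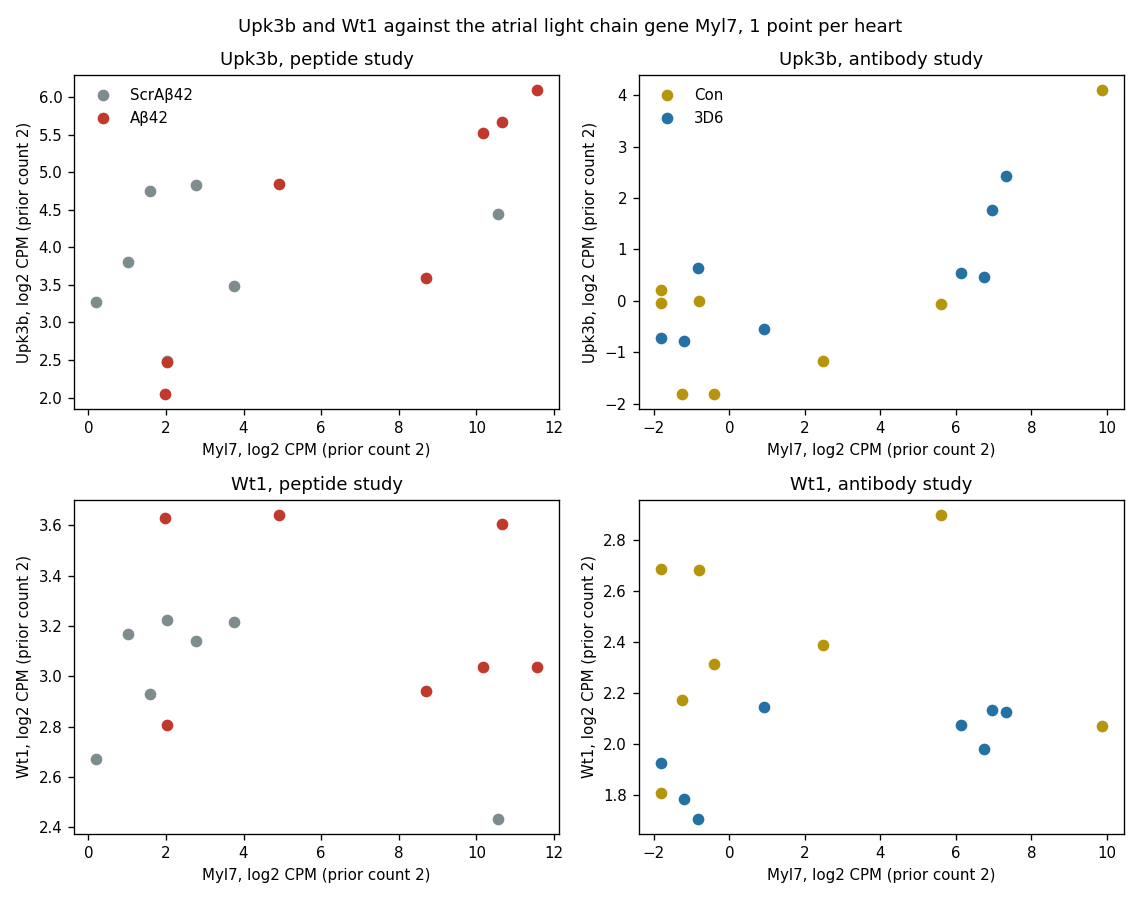
*Upk3b* (top) and *Wt1* (bottom) against *Myl7*, both as log2 CPM with a prior count of 2 on log scales, 1 point per heart, coloured by group. *Myl7* leaves a gap between 29.8 and 416 CPM in the peptide study and between 5.26 and 48.2 CPM in the antibody study, the hearts with the most *Upk3b* lie to its right, and *Wt1* shows no such step.

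The comparison of Aβ42 with ScrAβ42 asks whether the peptide changed these genes in the ventricle. Of the 8 members, 7 passed the filter of a mean of 10 counts per heart (*Krt18* at a mean of 15.1, *Krt8* outside it at 7), and 0 had an adjusted p under 0.05, as 0% of 11985 genes did by edgeR, while DESeq2 called 12 genes, 0 of them members. By unadjusted p under 0.05, 0 of 7 were higher, against 3.59% of all genes, and 0 of 7 lower, against 2.92% (6.51% in either direction). All 7 fitted log2 fold changes were above 0, with a median of 0.79 against 0.0015 over all genes tested, and since the 7 genes were chosen with this contrast in view and share their spread over hearts, nothing is read from that count. Without Abeta42_3456, 3 of 7 had an unadjusted p under 0.05 by edgeR, against 925 of 12004 genes, and 0 passed after adjustment.

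Of the 7 that passed the filter, *Krt19* had the largest fitted difference, from 3.15 ± 1.90 CPM with ScrAβ42 to 6.16 ± 5.39 CPM with Aβ42 (SD, n = 7 each), a log2 fold change of 0.98 (95% interval -0.25 to 2.20, adjusted p = 0.807, edgeR's quasi-likelihood test). *Msln* was at 14.2 ± 7.80 and 26.4 ± 21.1 CPM, a log2 fold change of 0.90 (-0.23 to 2.02, adjusted p = 0.806, edgeR). *Upk3b* was at 16.4 ± 8.90 and 30.3 ± 24.9 CPM, with 0.89 (-0.29 to 2.06, adjusted p = 0.810, edgeR). The SD with Aβ42 was more than the difference between the means for all 3. The intervals include both 0 and a doubling or more, so a change of that size is neither shown nor excluded by these hearts. The values moved with single hearts: without Abeta42_3457 the log2 fold changes were 0.53 for *Krt19*, 0.54 for *Msln*, 0.54 for *Upk3b*, 0.47 for *Lrrn4*, 0.25 for *Upk1b* and 0.07 for *Krt18*. Without ScrAbeta42_3448, that of *Krt18* was 0.93.

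For *Lrrn4* the log2 fold change was 0.79 (-0.35 to 1.93), for *Upk1b* 0.70 (-0.39 to 1.79) and for *Krt18* 0.61 (-0.53 to 1.76), with adjusted p of 0.839, 0.849 and 0.875 by edgeR. *Wt1* was at 7.60 ± 1.56 CPM with ScrAβ42 and 9.35 ± 2.47 CPM with Aβ42, a smaller and tighter difference of 0.30 (-0.077 to 0.68, adjusted p = 0.807, edgeR). *Myl7* differed by 2.04 with a standard error of 1.65. With the log2 CPM of *Myl7* as a covariate, the fitted changes of *Msln*, *Upk3b*, *Upk1b*, *Lrrn4*, *Krt19* and *Krt18* fell to between -0.50 and -0.0094, and that of *Wt1* was 0.44 (unadjusted p = 0.0447, adjusted p = 0.714, edgeR). Without the filter *Krt8* had a log2 fold change of 1.56 (unadjusted p = 0.0196, adjusted p = 0.661, edgeR), on 75 counts in 7 Aβ42 hearts and 23 in 7 ScrAβ42 hearts.

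The comparison of 3D6 with Con asks whether the antibody changed them on a high-fat diet. Only *Upk3b* and *Wt1* passed the filter, and 0 of these 2 had an adjusted p under 0.05, as 0% of 12274 genes did by edgeR and 0 by DESeq2. By unadjusted p under 0.05, 1 of 2, *Wt1*, was lower, against 2.32% of all genes, and 0 of 2 higher, against 1.32% (3.64% in either direction).

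*Wt1* ranged from 2.97 through 3.79 to 4.13 CPM in the 8 3D6 hearts and from 3.22 through 4.81 to 7.17 CPM in the 8 Con hearts. The 3D6 hearts were packed into the lower end: 0 of 8 exceeded the Con median, 6 of 8 Con hearts exceeded every 3D6 heart, and the groups overlapped through Con mice 8 and 15. The means were 3.69 ± 0.446 CPM with 3D6 and 5.05 ± 1.33 CPM with Con (SD, n = 8 each), a log2 fold change of -0.45 (standard error 0.16, 95% interval -0.79 to -0.11, unadjusted p = 0.0113, adjusted p = 0.946, edgeR's quasi-likelihood test). It thus did not pass after adjustment over all genes. Leaving out each heart in turn gave -0.52 to -0.36.

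The 5 endothelial genes *Pecam1*, *Cdh5*, *Kdr*, *Tie1* and *Emcn* are given beside *Wt1* because endothelial cells can make it. In that study 5 of 5 had a fold change below 0, with a median of -0.19 and 0 adjusted p under 0.05, as did 6 of 6 fibroblast genes (median -0.099), 5 of 5 tested atrial genes (-0.88) and 4 of 4 red cell genes (-0.11), so the sign is not particular to endothelium. *Pecam1* (-0.23, unadjusted p = 0.0134, edgeR) and *Emcn* (-0.25, unadjusted p = 0.0175, edgeR) had an unadjusted p under 0.05, while the adjusted p was 0.946 for both. The summed level of the 5 was 556 to 704 CPM with 3D6 and 610 to 820 CPM with Con. Across the 16 hearts, 3D6 and Con pooled, r between *Wt1* and the mean z score of the 5 genes was 0.76 (rho 0.58). It was 0.55 without the 2 hearts farthest from the median. The fitted changes of *Wt1* and of these 5 genes were all below 0, so the group difference enters this r. No r within a group was computed. The peptide hearts gave 0.13 (rho 0.20), and 0.46 without 2 hearts. Other lists also had r above 0 with *Wt1*: 0.49 for fibroblast (0.25 without 2 hearts), 0.41 for smooth muscle and 0.37 for ventricular genes in the antibody hearts, and 0.35 for ventricular genes in the peptide hearts (0.57 without 2). The part of endothelial RNA in the *Wt1* counts was not tested.

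*Upk3b* ranged from 0.300 through 1.13 to 5.06 CPM with 3D6 and from 0 through 0.680 to 16.8 CPM with Con. Its median was thus higher with 3D6 while its mean was lower, at 1.59 ± 1.67 against 2.49 ± 5.81 CPM (SD, n = 8 each). The fitted log2 fold change was -0.66 (-2.53 to 1.20, adjusted p = 0.946, edgeR), and DESeq2 and limma-voom gave the opposite sign, 1.74 and 0.97. Without Con mouse 15 its mean count falls under the filter, and the other 7 Con hearts lay between 0 and 0.877 CPM. The 6 members under the filter had 21 to 95 counts each over 16 hearts, and their fold changes without a filter were between -1.11 for *Upk1b* and 0.23 for *Krt18*, with 0 adjusted p under 0.05.

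**Figure D5:**
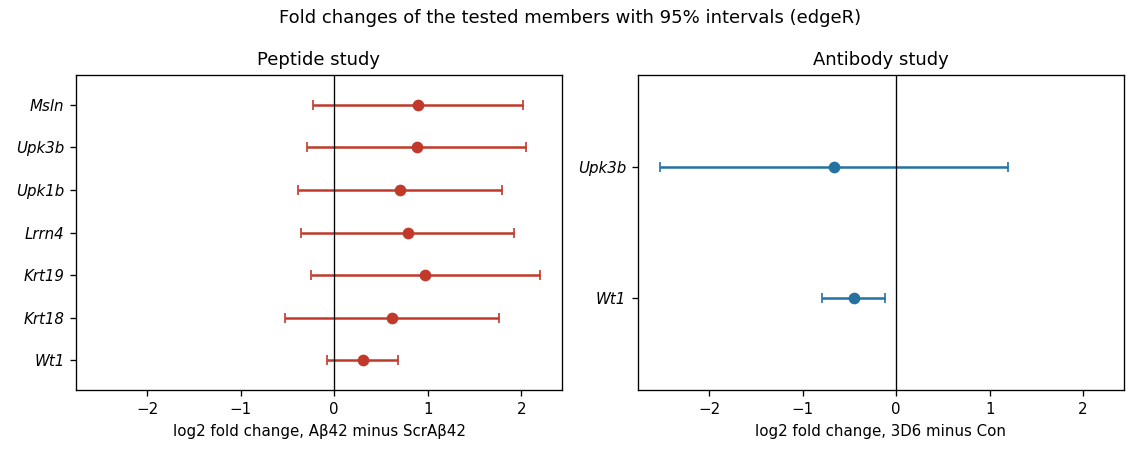
Log2 fold change (horizontal axis) of each member that passed the filter, with its 95% interval from edgeR, for Aβ42 minus ScrAβ42 (7 against 7 hearts) and 3D6 minus Con (8 against 8 hearts). Each interval of the peptide study includes 0, and in the antibody study that of *Wt1*, from -0.79 to -0.11, does not before adjustment.

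The other mesothelial and epicardial genes of a list of 18 were counted beside the members. In the peptide study 15 were tested, 0 passed after adjustment, 13 had a fold change above 0 and 2 below, with a median of 0.57. Their r with the mean z score of the 7 members had a median of 0.86 and ran from -0.15 to 0.97, against a median of 0.020 over all genes tested. *Cldn15*, a claudin of tight junctions, was at 16.1 ± 6.33 CPM with Aβ42 and 9.23 ± 3.08 CPM with ScrAβ42 (SD, n = 7 each; log2 fold change 0.80, unadjusted p = 0.00676, adjusted p = 0.644, edgeR). *Gpm6a*, a membrane glycoprotein, was at 22.2 ± 15.5 and 10.6 ± 4.61 CPM (1.07, adjusted p = 0.708, edgeR). In the antibody study 10 were tested, 2 above 0 and 8 below, with a median of -0.089 and 0 adjusted p under 0.05, and *Calb2*, the calretinin gene, was at 0 in every heart. There the median r of the list with the 7 members was 0.59, from -0.049 to 0.93, against a median of -0.013 over all genes. *Wt1* had an r of 0.12 with the mean z score of the tested genes of this list in both studies, and of -0.038 (peptide) and 0.38 (antibody) without the 2 hearts farthest from the median. In the peptide study the genes of this list thus went more closely with the 7 other members than with *Wt1*. The 2 measures differ, one a median over single genes and the other an r with a mean z score. Other lists, given below, also had r above 0 with the 7, and what the 7 mark was not tested. Among the antibody hearts low counts keep this from being read: the list genes with the highest r, *Muc16*, *Bnc1* and *Krt7*, had a median of 0 or 1 count, and both the summed level of atrial genes and that of the 7 members were highest in Con mouse 15.

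The keratins and uroplakins are also made by other epithelia, and markers of these were nearly missing. Of 10 genes of airway, alveolar, squamous and thymic epithelium, *Sftpc*, *Sftpa1*, *Krt15*, *Foxn1* and *Psmb11* were at 0 in all hearts of both studies. The 10 together reached 6.0 CPM at most in the peptide study and 5.66 CPM in the antibody study, nearly all of it *Scgb1a1*. Among the peptide hearts, *Scgb1a1* had 29 and 30 counts in ScrAbeta42_3447 and ScrAbeta42_3449, where *Upk3b* was 9.29 and 10.8 CPM, below the group's median. The urothelial genes *Upk1a*, *Upk2* and *Upk3a* together were at most 1.80 CPM.

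Lists of other cell types were set beside the 7 members in the same way, and 0 of their genes passed after adjustment in either study. In the peptide study 6 of 6 atrial genes had a fold change above 0. Their r with the score of the 7 over 14 hearts was 0.64 to 0.73, with a median of 0.70. These genes share the clusters of *Myl7*, so their r also holds the split between the clusters. For the 6 adipocyte genes r with the score of the 7 over 14 hearts was 0.13 to 0.58, with 6 of 6 above 0 and a median of 2.02, and for the 4 smooth muscle genes 0.53 to 0.72, with 4 of 4 above 0 and a median of 1.30. The 6 fibroblast genes had r of 0.44 to 0.67 and a median fold change of -0.018. The 5 ventricular genes had r of -0.73 to -0.40, with 4 of 5 fold changes below 0 (median -0.20). The 4 red cell genes had r of -0.15 to -0.11 and 4 of 4 fold changes below 0 (median -1.37), and the 5 endothelial genes r of -0.64 to 0.70 and 3 of 5 below 0 (median -0.099). Over all genes tested in that study the 5th and 95th percentiles of r were -0.66 and 0.68. Most of these values other than the atrial ones lie inside that range. The antibody hearts gave r of -0.083 to 0.66 for adipocyte genes, where 5 of 6 had a median of 0.5 to 2.5 counts and *Fabp4*, with a median of 2936.5, had the -0.083. They gave -0.12 to 0.19 for endothelial, -0.34 to 0.29 for smooth muscle, -0.14 to 0.50 for fibroblast, -0.42 to -0.010 for ventricular and 0.37 to 0.45 for red cell genes, against percentiles of -0.39 and 0.45. For the 6 atrial genes the antibody r was 0.011 to 0.86. Its median, 0.83, was above the median of 0.59 for the other mesothelial and epicardial genes. The part of these cell types in the members' levels was not tested.

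The rule for naming further genes used a score of the members that passed the filter in both studies, which left *Upk3b* and *Wt1*, over 11359 genes. The 2 did not go together (r of 0.035 in the peptide and -0.16 in the antibody hearts), and 125 of the 238 antibody counts of *Upk3b* came from Con mouse 15, so this score is no pattern shared by the members, and likeness to it says nothing about the other 6. By the smaller r of the 2 studies, the genes closest to the score were *Cldn15* (0.73), *Wdsub1* (0.65), *Mbp* (0.64), *Gbp3* (0.60), *Hpgd* (0.58), *Gpm6a* (0.58), *Igsf23* (0.58), *Sec22b* (0.57), *Grin2c* (0.56) and *Myef2* (0.55). *Cldn15* and *Gpm6a* are the 2 of these that are on the list of mesothelial genes.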

How the data were processed

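Gene expression was measured by stranded total RNA sequencing of the left ventricle. The authors trimmed reads and mapped them with Salmon (version not given in the sources used here) to GENCODE vM24 (GRCm38). The authors deposited unnormalized whole-number counts per gene for the peptide study, with no statement of how transcripts were summed. For the antibody study they deposited estimated counts per transcript, which were summed to genes with GENCODE vM21 and rounded, giving 56386 features. Transcripts that GENCODE vM21 does not list stayed as features of their own and held 0.38% of the counts. All features are called genes here. GENCODE vM21 lists 99.48% of the genes and 99.21% of the transcripts. Of the gene-level columns, 1 fits none of the labelled mice and was left out.

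Each study was fitted separately with edgeR 4.0.16 in R 4.3.3 (TMM, mean of at least 10 counts per heart, quasi-likelihood test, two-sided, Benjamini-Hochberg adjustment over 11985 or 12274 genes). Log2 CPM used a prior count of 2. In simulated counts where 200 genes differed by 1 on the log2 scale, 94% (peptide) and 98% (antibody) of them were recovered, with 9 and 6 false calls. The tested peptide members other than *Wt1* had standard errors of 0.51 to 0.58, so this share is not read for them. No 2 hearts of a group were alike within sampling noise (chi-square per degree of freedom at least 3.50). Near-identical transcripts were sought with blastn 2.17.0. Alternatives were DESeq2 1.42.0, limma-voom (limma 3.58.1), RLE and total-count scaling, no filter, *Myl7* as a covariate, a prior count of 0.5 and leaving out each heart.

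The members, gene lists and tests were chosen with earlier results of these data known. Named genes are the members, *Myl7*, the 10 genes closest to the members' score, and from the lists those closest to it. Other genes are named only to say what a list holds or were picked after their values were seen (*Scgb1a1*, and those named in the closing observations). Lists are described by r to the score of the 7 members, which was added after the values were seen. Intervals cover the spread between hearts.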

Additional observations from a re-analysis of the deposited data

Results flagged for a closer look

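By the gap of the highest or lowest heart to its neighbour, set against Dixon's 95% critical value, 8 of 36 groups of hearts were noted, and chance alone would note about 1 in 20 groups. All but 1 came from the same heart, Con mouse 15, so they are not independent of each other. Its values, each the highest of 8 Con hearts, were 6.20 CPM for *Msln*, 16.8 CPM for *Upk3b*, 1.75 CPM for *Upk1b*, 3.64 CPM for *Lrrn4*, 2.29 CPM for *Krt19*, 1.08 CPM for *Krt8* and 931 CPM for *Myl7*. The next Con hearts had 0.677 CPM of *Msln*, 0.877 CPM of *Upk3b* and 48.2 CPM of *Myl7*. In the peptide study, the heart ScrAbeta42_3448 had 1498 CPM of *Myl7*, and the next ScrAβ42 heart had 13.2 CPM. Its *Upk3b*, 21.3 CPM, lay within the range of its group.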

How the results depend on the processing

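No paired analysis was possible because the groups compared share 0 mouse numbers. Over 183 refits of a tested member, 0 gave an adjusted p under 0.05, and 8 turned the sign. With *Myl7* as a covariate in the peptide study, the log2 fold changes became -0.50 for *Krt18*, -0.16 for *Krt19*, -0.23 for *Lrrn4*, -0.0094 for *Msln*, -0.27 for *Upk1b* and -0.33 for *Upk3b*. In the antibody study *Upk3b* was 1.74 with DESeq2 (unadjusted p = 0.00664, adjusted p = 0.966) and 0.97 with limma-voom. The cause was not tested. Leaving out 1 heart at a time turned no sign in the fits that could be made, which leave out antibody *Upk3b* without Con mouse 15, where it falls under the filter and has no value. The peptide values ran from 0.07 for *Krt18* to 1.16 for *Krt19*. Without Abeta42_3456, 3 of 7 members had an unadjusted p under 0.05 by edgeR, against 925 of 12004 genes. Of all genes in the peptide study, DESeq2 called 12, and leaving out each heart gave 0 to 3 (3 without Abeta42_3452, 1 without ScrAbeta42_3448), with 0 members among the calls. In the antibody study 0 genes were called in every setting run. The links to *Myl7* rest on 6 or 9 hearts and move with single ones: without Abeta42_3460 r went from 0.59 to -0.0011 for *Krt8* and from 0.36 to 0.067 for *Upk3b* in the peptide study. In the 10 antibody hearts with less *Myl7* the counts are too few for a link to be read. Low counts limit the 6 members under the filter in the antibody study, with 21 to 95 counts each. Total counts per heart were higher there, at 6397192 to 8310478, than in the peptide study, at 4478991 to 6015767. The cause of the low counts was not tested.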

Other observations

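With the score of the 7 members other than *Wt1*, chosen after seeing the data, the genes most like it in the peptide study were *Nkain4* (r = 0.97 over 14 hearts), *Gpc3* (0.97), *Rspo1* (0.95), *Efemp1* (0.94), *Tmem119* (0.94), *Prss23* (0.94), *Lrp2* (0.94), *Cybrd1* (0.93), *Bst1* (0.93) and *A730046J19Rik* (0.93), out of 11978. *Nkain4* and *Rspo1*, which encodes a secreted activator of WNT signalling, are on the mesothelial list. *Rspo1* was at 5.49 ± 4.40 CPM with Aβ42 and 3.72 ± 2.02 CPM with ScrAβ42 (SD, n = 7 each), and *Gpc3*, the gene of a cell-surface proteoglycan, at 23.7 ± 19.1 and 17.3 ± 7.49 CPM. In the antibody study r with the same score was 0.78 for *Prss23*, 0.51 for *Tmem119*, 0.50 for *Efemp1* and 0.46 for *Gpc3*.

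The genes closest to *Wt1* alone by the smaller r of both studies were *Acer2* (0.57), *Prkch* (0.55), *Eno1* (0.54), *Timm9* (0.53) and *Paxx* (0.53), none of them on the mesothelial list.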
